A study of Homo sapiens with 12 samples.

Results

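YAP1 and WWTR1, the 2 genes at which the siRNAs were aimed, were followed through every library as the RNA left after knockdown. They were found by symbol among 60617 gene identifiers, as ENSG00000137693 (YAP1) and ENSG00000018408 (WWTR1), and both were measured in all 12 libraries. RNA was sequenced from A549 cells, an established human lung adenocarcinoma line, 24 hours after transfection. Cells received siYAP/TAZ#1 (4 libraries) or siYAP/TAZ#2 (4 libraries), which are different siRNA combinations against YAP and TAZ, or the non-targeting control siCo (4 libraries). All groups were the same line, with no other genetic change or treatment named, and the design text calls the replicates biological. Both combinations were aimed at both genes, so the loss of 1 gene alone was not measured.

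YAP1 encodes YAP and WWTR1 encodes TAZ, related coactivators with WW domains that bind no DNA by themselves. They enter the nucleus and bind TEAD transcription factors, which sit at the genes to be switched on. In the Hippo pathway the kinases STK3 and STK4 activate LATS1 and LATS2, and these phosphorylate YAP and TAZ, which holds them in the cytoplasm and marks them for breakdown. Known target genes include CCN1 and CCN2, which encode secreted matricellular proteins. An siRNA guides the RISC complex to a matching mRNA, which is cut and degraded, so knockdown is commonly read from the level of the targeted mRNA. Protein was not measured in these data, and at the level of bulk RNA, fewer cells with the transcript and less transcript per cell cannot be told apart.

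YAP1 lies on chromosome 11 of GRCh38, at 102110461-102233423 on the plus strand, with 11 transcripts of 785 to 5398 bases in GENCODE v29. WWTR1 lies on chromosome 3, at 149517235-149736714 on the minus strand, with 12 transcripts of 503 to 5030 bases. Sequence shared by the pair bears on whether reads of 1 gene can be taken for the other and whether 1 siRNA could match both. No stretch of 31 bases was shared by any of their transcripts. Over all their transcripts the longest shared stretch was 22 bases, in WWTR1 only in WWTR1-210, a retained-intron transcript without annotated coding sequence. The longest identical stretch in the coding sequences of YAP1-201 and WWTR1-203 was 21 bases. This 21-base stretch was found in 10 YAP1 and 7 WWTR1 transcripts and in no other annotated gene on either strand. It is shown with 25 bases on each side, 5′ to 3′, as spliced mRNA, with the identical stretch in capitals.
YAP1-201: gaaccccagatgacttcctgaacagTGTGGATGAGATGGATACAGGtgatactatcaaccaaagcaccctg
WWTR1-203: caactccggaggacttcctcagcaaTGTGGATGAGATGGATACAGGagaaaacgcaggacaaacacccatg
The YAP1 window covers coding bases that map to chr11:102227537-102229727 (plus strand, GRCh38) and the WWTR1 window bases that map to chr3:149520964-149526057 (minus strand), each with an intron removed inside the capitals. Within the printed windows, 50 of 71 positions were identical. The sources used here do not give the siRNA sequences, so their sites in either mRNA are not analysed here.

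The libraries held 29.6 to 38.3 estimated counts each (in units of 1e6), and mitochondrial genes took 0.753 to 1.29% of counts. The level of each gene is given as CPM, counts per 1e6 after TMM scaling, and as TPM, which is scaled by transcript length. The 10 genes most abundant in TPM, short RNAs and the host gene MIR663AHG, took 36.3 to 69.1% of TPM but 3.83 to 10.4% of counts. Replicate 4 of siYAP/TAZ#1 and replicate 4 of siYAP/TAZ#2 stood apart in TPM: MIR3648-1 and MIR3648-2 together held 11.0% and 9.60% of TPM there, against 22.2 to 39.4% in the other 10 libraries. Replicate 4 of siCo was shifted the same way within its group, by less: these genes held 22.8% of TPM there, against 27.4 to 39.4% in the other siCo libraries, and in each group replicate 4 had the highest mitochondrial share (1.10%, 1.29% and 0.934% in siYAP/TAZ#1, siYAP/TAZ#2 and siCo). All 10 markers chosen for A549, epithelial and NRF2-linked genes, had a mean of at least 1 TPM. Of the markers of other cell types, 1 of 8 for alveolar type 2 cells (ABCA3), 1 of 6 for fibroblasts (COL1A1), 1 of 5 for leukocytes (CD68) and 0 of 4 for endothelial cells did so. ABCA3 (9.48 to 32.1 TPM), COL1A1 (16.2 to 43.9 TPM) and CD68 (11.5 to 23.3 TPM) stood above the A549 marker EPCAM (0.849 to 3.29 TPM). The lowest value of any other A549 marker was 3.28 TPM (CDH1). The summed TPM of the fibroblast list ran from 31.9 to 45.0 in siYAP/TAZ#1 libraries and from 24.0 to 38.3 in siYAP/TAZ#2 libraries, against 16.5 to 26.7 in siCo, and that of the alveolar type 2 list 17.8 to 34.2 and 18.2 to 31.5, against 9.87 to 19.1 in siCo. Most of each sum was COL1A1 or ABCA3, SFTPA1 was at 0 in every library, and the summed TPM of the A549 markers was also higher in treated libraries (3896 to 6357 and 3575 to 6281, against 2340 to 3619 in siCo). The part of other cells in the results was not tested.

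In counts, both transcripts fell with either combination, to group means of 13.5 to 15.5% of the siCo mean. YAP1 had estimated counts of 621, 681, 822 and 616 in siYAP/TAZ#1 replicates 1 to 4, and of 606, 571, 630 and 526 in siYAP/TAZ#2 replicates 1 to 4, against 4074, 3758, 3301 and 4238 in siCo. After scaling this was 17.9, 19.2, 20.5 and 17.3 CPM with siYAP/TAZ#1 and 19.1, 17.0, 16.9 and 16.5 CPM with siYAP/TAZ#2, against 124.6, 115.7, 123.8 and 120.6 CPM in siCo. The 8 treated libraries lay far below all siCo libraries, and the treated groups overlapped each other.

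WWTR1 had estimated counts of 1082, 1175, 1339 and 1199 with siYAP/TAZ#1, and of 940, 1108, 1177 and 1128 with siYAP/TAZ#2, against 7805, 7468, 6760 and 8443 in siCo. In CPM it stood at 31.2, 33.1, 33.5 and 33.7 with siYAP/TAZ#1 and at 29.68, 33.05, 31.62 and 35.32 with siYAP/TAZ#2, against 238.8, 230.0, 253.5 and 240.2 in siCo. Again no treated library came near a siCo library, and the treated groups overlapped.

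Set against the siCo mean, 15.5 ± 1.18% of YAP1 CPM remained with siYAP/TAZ#1 and 14.3 ± 0.980% with siYAP/TAZ#2 (SD, n = 4 each). For WWTR1, 13.7 ± 0.475% remained with siYAP/TAZ#1 and 13.5 ± 0.988% with siYAP/TAZ#2 (SD, n = 4 each). For each gene the ranges of the combinations overlapped. The edgeR quasi-likelihood test gave a log2 change for YAP1 of -2.69 ± 0.069 (SE, adjusted p = 1.91e-13) with siYAP/TAZ#1 and of -2.80 ± 0.070 (adjusted p = 1.43e-13) with siYAP/TAZ#2. For WWTR1 the edgeR log2 change was -2.87 ± 0.064 (adjusted p = 6.20e-14) with siYAP/TAZ#1 and -2.89 ± 0.064 (adjusted p = 1.16e-13) with siYAP/TAZ#2. Both genes were thus called lower with both combinations, where 18.5% of the 21581 genes tested were called lower with siYAP/TAZ#1 and 19.2% with siYAP/TAZ#2. Ordered by log2 change in counts from the lowest, WWTR1 was number 8 and YAP1 number 11 of these genes with siYAP/TAZ#1, and numbers 9 and 11 with siYAP/TAZ#2.

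Between the combinations, neither transcript passed the test in counts. The edgeR log2 difference, siYAP/TAZ#1 against siYAP/TAZ#2, was 0.11 ± 0.069 for YAP1 (adjusted p = 0.37) and 0.02 ± 0.062 for WWTR1 (adjusted p = 0.90), in a comparison that called 15.1% of all genes.

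**Figure D1:**
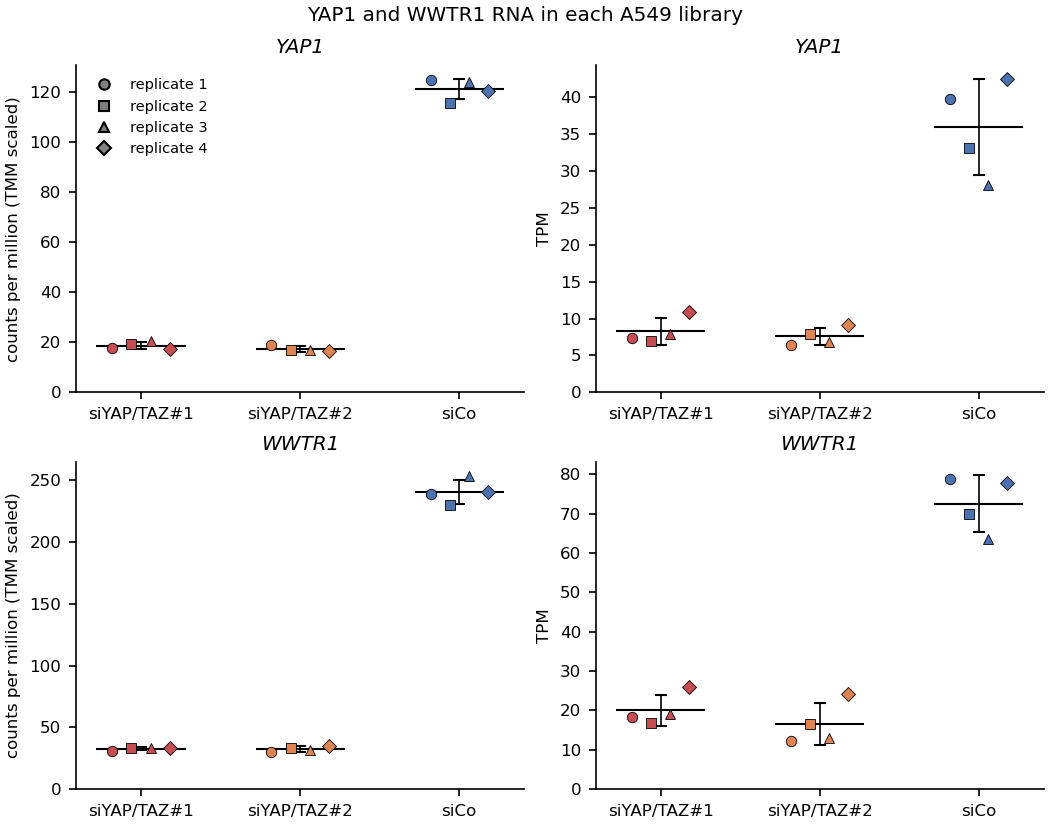
Level of YAP1 (top) and WWTR1 (bottom) in each library, in TMM-scaled CPM (left) and TPM (right), with symbols for the replicate number and bars for the mean and SD of 4 libraries. In CPM the treated libraries sit close together, at 16.5 to 20.5 for YAP1 and 29.7 to 35.3 for WWTR1, while in TPM replicate 4 is the highest treated library of each combination.

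In TPM the knockdown was also present, but more transcript appeared to remain and the libraries spread more. YAP1 had 7.40, 6.95, 7.88 and 10.95 TPM in siYAP/TAZ#1 replicates 1 to 4 and 6.49, 7.88, 6.83 and 9.14 TPM in siYAP/TAZ#2, against 39.8, 33.1, 28.1 and 42.5 TPM in siCo. WWTR1 had 18.3, 16.8, 19.0 and 25.9 TPM in siYAP/TAZ#1 and 12.3, 16.7, 13.1 and 24.2 TPM in siYAP/TAZ#2, against 78.8, 69.8, 63.6 and 77.9 TPM in siCo. Treated and siCo libraries did not overlap for either gene, and replicate 4 was the highest treated library for both genes with both combinations.

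The TPM remaining was 23.1 ± 5.05% of the siCo mean for YAP1 with siYAP/TAZ#1 and 21.1 ± 3.34% with siYAP/TAZ#2 (SD, n = 4 each). For WWTR1 it was 27.6 ± 5.58% with siYAP/TAZ#1 and 22.9 ± 7.51% with siYAP/TAZ#2 (SD, n = 4 each). By the mean CPM less of WWTR1 than of YAP1 remained, and by the mean TPM more of it, with both combinations. With siYAP/TAZ#2 the order in TPM was not the same in every library: in replicates 1 and 3 less WWTR1 (17.0 and 18.1%) than YAP1 (18.1 and 19.0%) remained, and without replicate 4 the log2 ratio of WWTR1 to YAP1 in TPM against siCo was -0.047. limma on log2(TPM + 1), a scale that understates changes of low genes, gave YAP1 a change of -1.99 ± 0.194 (SE, adjusted p = 3.74e-05) with siYAP/TAZ#1 and of -2.10 ± 0.194 (adjusted p = 1.20e-05) with siYAP/TAZ#2.

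For WWTR1 the limma change in log2(TPM + 1) was -1.82 ± 0.205 (adjusted p = 9.98e-05) with siYAP/TAZ#1 and -2.11 ± 0.205 (adjusted p = 1.64e-05) with siYAP/TAZ#2. Here 0.723% of all genes were called lower and 8.04% higher with siYAP/TAZ#1, and 0.917% lower and 16.3% higher with siYAP/TAZ#2, and the median gene changed by 0.19 and 0.24 on this scale. These TPM counts depended on single libraries: the 1736 genes called higher with siYAP/TAZ#1 were over 1.5 times fewer without siYAP/TAZ#1 replicate 1 or 4 or siCo replicate 1, 2 or 3, with 635 at the lowest (without siCo replicate 3). The 3519 called higher with siYAP/TAZ#2 became 7697 without siYAP/TAZ#2 replicate 1, and were over 1.5 times fewer without siYAP/TAZ#2 replicate 2, 3 or 4 or siCo replicate 2 or 3, with 1644 at the lowest (without siCo replicate 3). Between the combinations, siYAP/TAZ#1 against siYAP/TAZ#2, the limma difference in log2(TPM + 1) was 0.11 ± 0.194 for YAP1 (adjusted p = 1.00) and 0.29 ± 0.205 for WWTR1 (adjusted p = 0.95), with 0.542% of all genes called. The call for WWTR1 between the combinations turned on the scaling of TPM: with TMM-type factors computed on TPM the difference was 0.36 with an adjusted p of 0.026 (limma), and with TPM rescaled without the 10 most abundant genes it was 0.36 with an adjusted p of 0.034. Over all alternatives that adjusted p ran from 0.026 to 1.00.

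**Figure D2:**
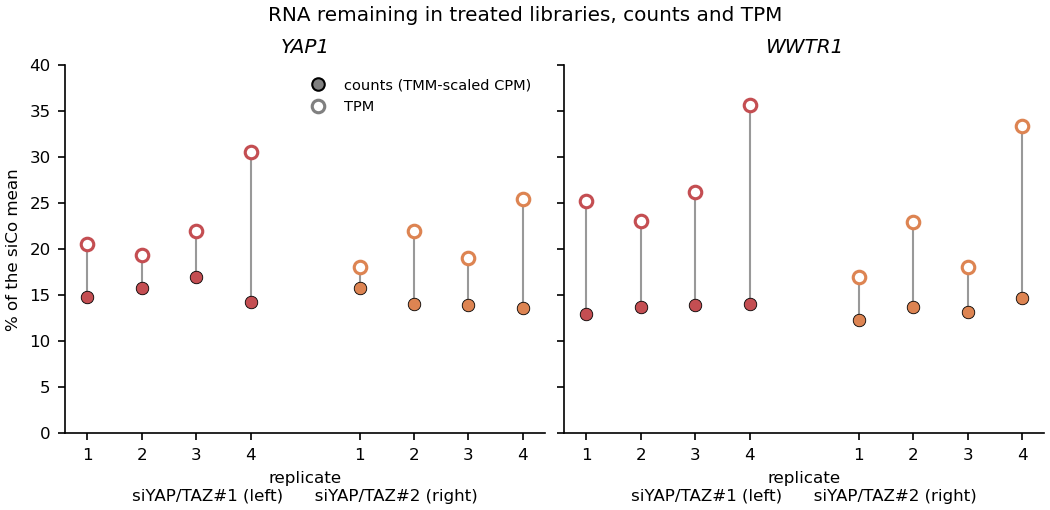
RNA remaining in each treated library as a percentage of the siCo mean, in counts (filled, TMM-scaled CPM) and in TPM (open), for YAP1 (left) and WWTR1 (right), with siYAP/TAZ#1 to the left of siYAP/TAZ#2. Every open point lies above its filled point, and the gap is widest in replicate 4 of each combination. Each gap includes a part from scaling that all genes of a library share.

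Library by library, the TPM remaining was larger than the CPM remaining in 8 of 8 treated libraries for each gene. This gap includes a part shared by all genes of a library, from the scaling of counts and of TPM. The share of all genes with the same order was not computed. For YAP1 the percentage in TPM was 1.40, 1.22, 1.30 and 2.14 times that in CPM in siYAP/TAZ#1 replicates 1 to 4, and 1.15, 1.56, 1.36 and 1.88 times in siYAP/TAZ#2. For WWTR1 it was 1.95, 1.68, 1.89 and 2.55 times with siYAP/TAZ#1, and 1.37, 1.67, 1.38 and 2.28 times with siYAP/TAZ#2. WWTR1 had the wider gap of the pair in all 8 treated libraries.

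Apart from the scaling of counts by library, this gap is by construction a change in the ratio of estimated count to TPM. For YAP1 the ratio was 83.9, 98.0, 104.3 and 56.3 with siYAP/TAZ#1 and 93.4, 72.5, 92.3 and 57.5 with siYAP/TAZ#2, against 102.4, 113.5, 117.4 and 99.7 in siCo. For WWTR1 it was 59.1, 70.1, 70.3 and 46.3 with siYAP/TAZ#1 and 76.4, 66.5, 89.7 and 46.6 with siYAP/TAZ#2, against 99.1, 106.9, 106.3 and 108.3 in siCo. For WWTR1 every treated value was under the lowest siCo value, and for YAP1 every one but that of siYAP/TAZ#1 replicate 3. The median ratio over all genes was 82.0, 94.7, 97.6 and 58.2 with siYAP/TAZ#1 and 92.3, 68.8, 78.9 and 51.0 with siYAP/TAZ#2. In siCo this median was 87.5, 97.4, 97.6 and 83.1. For the ratio before centring on the median, the share of all genes without overlap was not computed.

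A count to TPM ratio is the product of a gene term, the effective length over which the reads of its transcripts are spread, and a library term shared by all genes. The library term, in reads per base per TPM, was read from 929 genes with a single annotated transcript. Per library, 498 to 503 of them (53.6 to 54.1%) fell on a common line within a window of 0.4%, chosen to hold the most genes. The others lay off it, so the length implied for a single gene can miss its annotated length. The library term was lowest in replicate 4 of siYAP/TAZ#1 (0.0358) and replicate 4 of siYAP/TAZ#2 (0.0312), against 0.0424 to 0.0604 in the other libraries. These are the libraries in which the MIR3648 genes took the smallest share of TPM, and the part of that share in the gap was not tested. After removal of the 10 most abundant genes and rescaling of TPM, an alternative added after the data were seen, 19.5 ± 0.780% of YAP1 remained with siYAP/TAZ#1 and 17.2 ± 1.85% with siYAP/TAZ#2, and 23.04 ± 0.959% and 17.94 ± 2.52% of WWTR1 (SD, n = 4 each).

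Divided by the library term, the ratio gives the effective length of each gene. For YAP1 it was 1668, 1678, 1745 and 1571 bases with siYAP/TAZ#1 and 1606, 1711, 1919 and 1842 bases with siYAP/TAZ#2, against 1890, 1897, 1944 and 1956 bases in siCo. For WWTR1 it was 1174, 1201, 1177 and 1292 bases with siYAP/TAZ#1 and 1314, 1570, 1866 and 1491 bases with siYAP/TAZ#2, against 1828, 1787, 1760 and 2124 bases in siCo. With siYAP/TAZ#1 both genes lay below all siCo libraries, and WWTR1 also lay below all siYAP/TAZ#2 libraries.

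With siYAP/TAZ#2, 3 of 4 libraries lay below all siCo libraries for each gene, and replicate 3 lay among the siCo values. By the ratio less the median of each library, groups that did not overlap, with the lower values in the first, were found for 1.89% of 21271 genes in siYAP/TAZ#1 against siCo, for 1.78% in siYAP/TAZ#2 against siCo and for 1.18% in siYAP/TAZ#1 against siYAP/TAZ#2. WWTR1 with siYAP/TAZ#1 was also among the 0.197% of genes that did not overlap and were lower by more than 0.5 on the log2 scale.

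The limma test of this centred log2 ratio did not call either gene. WWTR1 differed by -0.63 ± 0.092 with siYAP/TAZ#1 (SE, adjusted p = 0.056), which was number 15 of 21271 genes by p, and by -0.27 ± 0.092 with siYAP/TAZ#2 (adjusted p = 0.48). YAP1 differed by -0.21 ± 0.045 with siYAP/TAZ#1 (adjusted p = 0.20) and by -0.12 ± 0.045 with siYAP/TAZ#2 (adjusted p = 0.57) in the same limma test. The test called 0.0611% of genes with siYAP/TAZ#1 and 0.226% with siYAP/TAZ#2, counting both directions. Between siYAP/TAZ#1 and siYAP/TAZ#2 the limma difference was -0.36 ± 0.092 for WWTR1 (adjusted p = 0.38) and -0.09 ± 0.045 for YAP1 (adjusted p = 1.00), with 0.094% of genes called. The WWTR1 value for siYAP/TAZ#1 lay close to the threshold and crossed it in 3 alternatives, with adjusted p-values of 0.047 (genes with a mean of at least 10 counts), 0.037 (without siYAP/TAZ#2 replicate 1) and 0.021 (without siYAP/TAZ#2 replicate 3). Over all alternatives its adjusted p ran from 0.021 to 0.165.

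**Figure D3:**
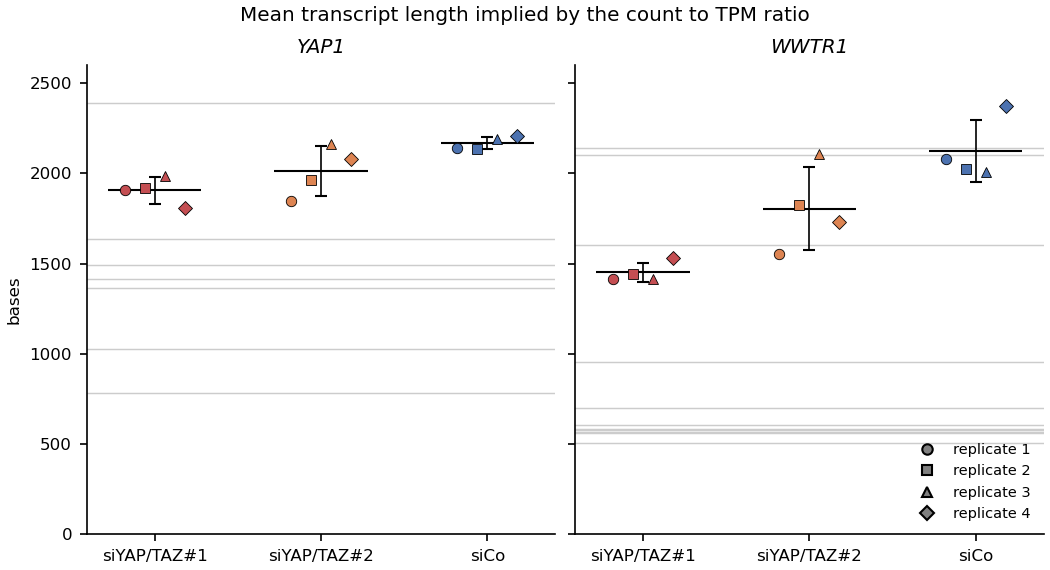
Mean transcript length of YAP1 (left) and WWTR1 (right) implied by each library, in bases, as the effective length plus the 239 to 254 bases by which transcripts exceed it, with mean and SD of 4 libraries per group. Grey lines are annotated transcripts under 2600 bases; the WWTR1 points with siYAP/TAZ#1 lie at 1414 to 1531 bases, under the line at 1603 bases, and the siCo points at 2006 to 2376 bases lie around the lines at 2103 and 2143 bases.

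The implied mean length sets these values beside the annotated transcripts. For WWTR1 it was 1414, 1443, 1417 and 1531 bases with siYAP/TAZ#1 and 1556, 1824, 2109 and 1730 bases with siYAP/TAZ#2, against 2080, 2027, 2006 and 2376 bases in siCo. WWTR1 transcripts with the full coding sequence of 1200 bases have 1603 (WWTR1-204), 2103 (WWTR1-201) and 5030 bases (WWTR1-203), and 8 of 12 WWTR1 transcripts are under 1500 bases. None of the 8 carries the full coding sequence. The mean was below the shortest transcript with the full coding sequence in all 4 siYAP/TAZ#1 libraries and in replicate 1 of siYAP/TAZ#2, and above it in the other libraries. These lengths are those of GENCODE v29, and the annotation behind the deposited TPM may list others. For YAP1 the implied mean ran from 1810 to 1985 bases in siYAP/TAZ#1 and from 1848 to 2162 bases in siYAP/TAZ#2, against 2137 to 2208 bases in siCo. The deposited tables are per gene, so which transcripts held the reads was not analysed here.

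**Figure D4:**
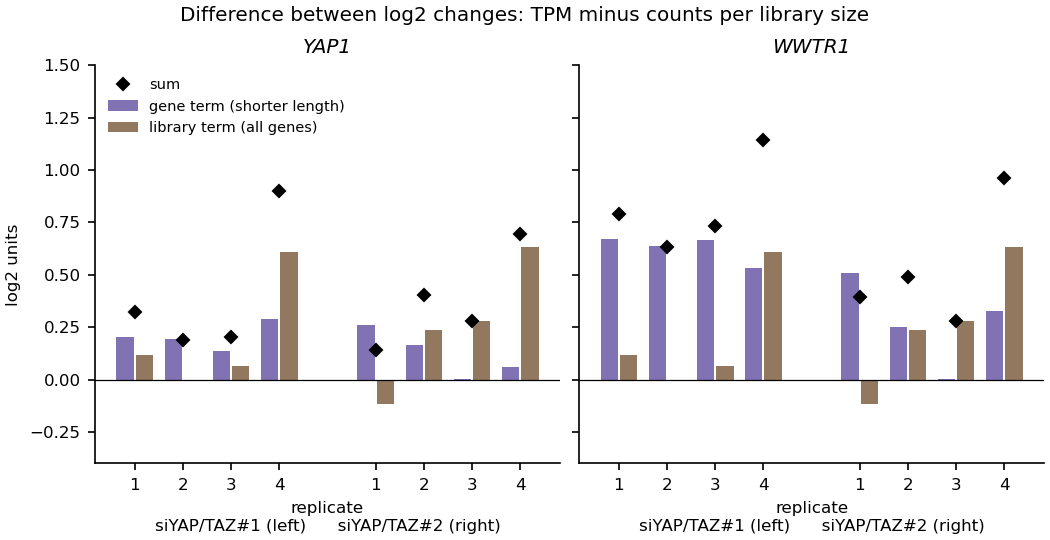
Gap between the log2 change in TPM and the log2 change in counts per library size, for each treated library against the siCo mean, split into a gene term (shorter effective length, purple) and a library term (brown), with diamonds for their sum; a bar above 0 raises TPM over counts. For WWTR1 with siYAP/TAZ#1 the gene term is 0.53 to 0.67 in all 4 libraries, while the library term reaches 0.61 and 0.63 in the replicates numbered 4.

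The split of the gap differed between the genes and the libraries; here counts were scaled by library size without TMM factors, and the library term was taken per library size. For WWTR1 with siYAP/TAZ#1, the log2 length differed by -0.67, -0.64, -0.67 and -0.53 from the siCo mean in replicates 1 to 4, and the library term by -0.12, 0.01, -0.07 and -0.61. In replicates 1 to 3 the gene term was therefore the larger one. For YAP1 with siYAP/TAZ#1 the log2 length differed by -0.20, -0.20, -0.14 and -0.29, and in replicate 4 the library term was the larger of the 2. With siYAP/TAZ#2 the log2 length differed by -0.51, -0.25, -0.0028 and -0.33 for WWTR1 and by -0.26, -0.17, -0.0014 and -0.06 for YAP1, beside a library term of 0.12, -0.24, -0.28 and -0.63.

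Per length, WWTR1 was the more abundant transcript in all 12 libraries. The ratio of WWTR1 TPM to YAP1 TPM was 2.48, 2.41, 2.41 and 2.37 with siYAP/TAZ#1 and 1.90, 2.12, 1.92 and 2.65 with siYAP/TAZ#2, against 1.98, 2.11, 2.26 and 1.83 in siCo. The siYAP/TAZ#1 libraries lay above all siCo libraries, and the siYAP/TAZ#2 libraries overlapped both. The log2 ratio in TPM differed by 0.24 in siYAP/TAZ#1 against siCo (two-sided exact permutation test, p = 0.0286, the smallest that 4 against 4 libraries allow, adjusted p = 0.0857 over 3 comparisons). It differed by 0.06 in siYAP/TAZ#2 against siCo (exact p = 0.686, adjusted p = 0.686) and by 0.18 in siYAP/TAZ#1 against siYAP/TAZ#2 (exact p = 0.143, adjusted p = 0.214).

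In counts the sign of this difference was the opposite. The log2 ratio of CPM differed by -0.18 in siYAP/TAZ#1 against siCo, by -0.09 in siYAP/TAZ#2 against siCo and by -0.08 in siYAP/TAZ#1 against siYAP/TAZ#2, so no direction for the balance of the pair held on both scales. The sum of both transcripts was 25.7, 23.7, 26.9 and 36.9 TPM with siYAP/TAZ#1 and 18.8, 24.5, 19.9 and 33.4 TPM with siYAP/TAZ#2, against 118.5, 102.9, 91.7 and 120.4 TPM in siCo. Of this sum, 26.1 ± 5.40% remained with siYAP/TAZ#1 and 22.3 ± 6.11% with siYAP/TAZ#2 (SD, n = 4 each). By CPM, 14.3 ± 0.572% and 13.8 ± 0.409% of the sum remained (SD, n = 4 each).

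**Figure D5:**
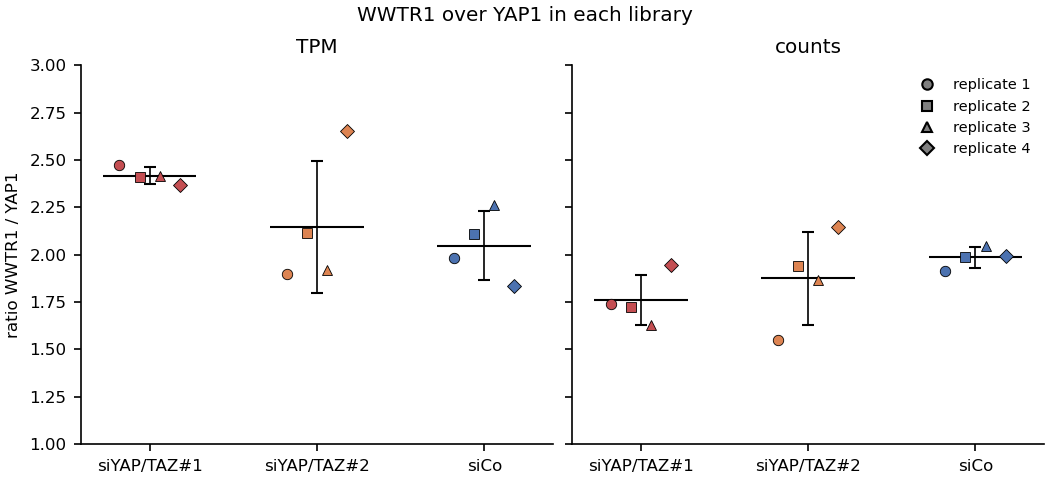
Ratio of WWTR1 to YAP1 in each library in TPM (left) and in counts (right), with mean and SD of 4 libraries per group. In TPM the siYAP/TAZ#1 libraries lie at 2.37 to 2.48, above siCo at 1.83 to 2.26, while in counts they lie at 1.63 to 1.95 beside siCo at 1.92 to 2.05.

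The counts of the pair could be shared with few other genes in the case of YAP1 and with more in the case of WWTR1. YAP1 counts were whole numbers within 0.0062 in every library, and its 31-base words were shared with 3 other genes. WWTR1 counts were off whole numbers by 0.114 to 0.490, and its words were shared with 407 other genes. The largest overlap was with the antisense gene WWTR1-AS1, which carries 738 of 8461 WWTR1 words (8.72%) on the opposite strand. The sources used here do not say whether counting used strand, so reads from WWTR1 and WWTR1-AS1 may not be told apart there. WWTR1-AS1 itself had 54.5 to 83.9 counts across siYAP/TAZ#1 libraries and 55.7 to 75.5 across siYAP/TAZ#2 libraries, against 60.4 to 73.1 in siCo, and did not pass the edgeR test (log2 -0.14, adjusted p = 0.58, and -0.05, adjusted p = 0.84).

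Other transcripts of the loci were low. WWTR1-IT1, an intronic transcript on the strand of WWTR1, had a mean of 0.847 ± 0.341 CPM in siYAP/TAZ#1 and 1.07 ± 0.171 CPM in siYAP/TAZ#2, against 0.793 ± 0.196 CPM in siCo (SD, n = 4 each), and was not called by edgeR (log2 0.09, adjusted p = 0.84, and 0.42, adjusted p = 0.28). The antisense gene ENSG00000254422, which overlaps YAP1, had 0 to 1 and 0 to 3 counts with siYAP/TAZ#1 and siYAP/TAZ#2, against 2 to 11 in siCo, and was too low to be tested. The YAP1 pseudogene YAP1P1 had at most 10, 11 and 5 counts in siYAP/TAZ#1, siYAP/TAZ#2 and siCo, and YAP1P2 and YAP1P3 had 0 in all libraries. RNU6-1098P, a small nuclear RNA copy within WWTR1, had at most 2 counts.

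Of the nearest coding genes, several changed, in both directions. Of all 21581 genes, 18.5% were called lower and 16.4% higher with siYAP/TAZ#1, and 19.2% and 19% with siYAP/TAZ#2. Whether neighbours of the pair changed more often than other genes was not tested. Next to YAP1, BIRC2, an inhibitor of apoptosis protein, fell by edgeR with siYAP/TAZ#1 (log2 -0.45, adjusted p = 0.0015) and with siYAP/TAZ#2 (log2 -0.78). Its relative BIRC3 fell with siYAP/TAZ#2 (log2 -0.82) and had a log2 change of -0.22 with siYAP/TAZ#1 (edgeR adjusted p = 0.13). CEP126, a centrosomal protein, rose with siYAP/TAZ#2 (log2 0.66) and had a log2 change of 0.26 with siYAP/TAZ#1 (edgeR adjusted p = 0.081). CFAP300, a gene of ciliary motility, rose with siYAP/TAZ#2 (log2 0.44, edgeR adjusted p = 0.012) and had a log2 change of 0.28 with siYAP/TAZ#1 (adjusted p = 0.10). Without TMM factors the BIRC2 call with siYAP/TAZ#1 was lost (log2 -0.28, edgeR adjusted p = 0.083), and CFAP300 (log2 0.46, adjusted p = 0.017) and CEP126 (log2 0.43, adjusted p = 0.014) were called higher with siYAP/TAZ#1. In a fit of the siYAP/TAZ#1 and siCo libraries alone, edgeR called CEP126 higher (log2 0.28, adjusted p = 0.019) and BIRC3 lower (log2 -0.20, adjusted p = 0.039). Without siYAP/TAZ#2 replicate 1, edgeR also called BIRC3 lower (log2 -0.22, adjusted p = 0.017) and CEP126 higher (log2 0.25, adjusted p = 0.020) with siYAP/TAZ#1.

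Next to WWTR1, the related membrane protein genes TM4SF4 and TM4SF1 moved in opposite directions. TM4SF4 rose with siYAP/TAZ#1 (log2 0.87) and siYAP/TAZ#2 (log2 1.25), and TM4SF1 fell with siYAP/TAZ#1 (log2 -0.79) and siYAP/TAZ#2 (log2 -0.67). COMMD2, which encodes a COMM domain protein and lies 1756 bases beyond the upstream end of WWTR1, averaged 12.6 ± 0.820 CPM with siYAP/TAZ#1 and 21.9 ± 2.34 CPM with siYAP/TAZ#2, against 19.8 ± 1.24 CPM in siCo (SD, n = 4 each). It fell with siYAP/TAZ#1 (log2 -0.64) and had a log2 change of 0.15 with siYAP/TAZ#2 (edgeR adjusted p = 0.20), and the combinations differed by -0.79 (siYAP/TAZ#1 against siYAP/TAZ#2, edgeR adjusted p = 5.50e-06). Without siYAP/TAZ#2 replicate 1, edgeR called COMMD2 higher with siYAP/TAZ#2 (log2 0.22, adjusted p = 0.016), and so it did without TMM factors (log2 0.34, adjusted p = 0.019). ANKUB1, the next gene, had log2 changes of 0.16 and 0.36 and was not called (edgeR adjusted p = 0.77 and 0.46).

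The genes around YAP and TAZ in the pathway changed less than the pair itself. Of 32 Hippo pathway genes, 31 were tested in counts: with siYAP/TAZ#1, 16 were called lower and 3 higher, and with siYAP/TAZ#2, 18 lower and 3 higher, where 18.5% and 19.2% of all genes were called lower and 16.4% and 19% higher. The median log2 change of the list in counts was -0.22 and -0.39, against 0.02 and 0.02 over all genes. In TPM, limma called 3 lower and 0 higher with siYAP/TAZ#1, and 5 lower and 2 higher with siYAP/TAZ#2. Of all genes, 0.723% and 0.917% were called lower in TPM, and 8.04% and 16.3% higher. The median change of the list in log2(TPM + 1) was 0.13 and 0.03, against 0.19 and 0.24 over all genes. Of the TEAD factors, which YAP and TAZ bind, by edgeR in counts TEAD1 fell with siYAP/TAZ#1 (log2 -0.58) and siYAP/TAZ#2 (log2 -0.54), and so did TEAD4 (log2 -0.60 and -0.64). TEAD2 fell with siYAP/TAZ#2 (log2 -0.38) and had a log2 change of 0.01 with siYAP/TAZ#1 (edgeR adjusted p = 0.94), and TEAD3 rose with siYAP/TAZ#1 (log2 0.37) and had a log2 change of 0.28 with siYAP/TAZ#2 (edgeR adjusted p = 0.081). Without TMM factors 13 Hippo genes were called lower and 7 higher with siYAP/TAZ#1, and 16 lower and 6 higher with siYAP/TAZ#2. Of all 21581 genes, 1905 were then called lower and 5876 higher with siYAP/TAZ#1, and 2037 and 6538 with siYAP/TAZ#2. Without siYAP/TAZ#2 replicate 1, but with TMM factors, 6 and 5 Hippo genes were called higher.

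The other Hippo genes named here are the 6 with the lowest adjusted p in counts for the mean of both combinations against siCo. Their changes are by edgeR for each combination. NF2, the scaffold known as merlin, fell with siYAP/TAZ#1 (log2 -0.92) and siYAP/TAZ#2 (log2 -1.32), and its partner WWC1, known as KIBRA, did so too (log2 -0.80 and -1.28). The LATS2 kinase fell with both combinations (log2 -1.16 and -1.14), as did the phosphatase PTPN14, which binds YAP (log2 -0.96 and -0.71), and FRMD6 (log2 -1.51 and -1.12). AMOTL2, an angiomotin that binds YAP and TAZ, had log2 changes of -2.21 and -2.63. In TPM, limma did not call LATS2 (adjusted p = 0.052 and 0.073) or PTPN14 (adjusted p = 0.13 and 0.36) with either combination, nor WWC1 with siYAP/TAZ#1 (adjusted p = 0.24).

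Of 22 genes of a published YAP/TAZ target signature, all were tested and 22 were called lower with each combination in counts, where 18.5% and 19.2% of all genes were, with a median log2 change of -1.07 with siYAP/TAZ#1 and -0.83 with siYAP/TAZ#2. Named here are the 6 members with the lowest adjusted p in an edgeR test of the mean of both combinations against siCo. They were CCN1 (log2 -2.90 and -2.92), CCN2 (-3.06 and -2.33), ANKRD1, a nuclear ankyrin repeat protein (-2.53 and -2.92), the growth factor TGFB2 (-2.26 and -1.49), the kinase NUAK2 (-1.34 and -1.50) and AMOTL2. In TPM, limma called 9 of 22 lower with siYAP/TAZ#1 and 7 with siYAP/TAZ#2, where 0.723% and 0.917% of all genes were, and 0 higher. In the count to TPM ratio limma called 0 of 22 target genes and 0 of 30 tested Hippo genes with either combination, where 0.0611% and 0.226% of all genes were called; CCN1 had log2 ratio changes of -0.02 and 0.01. AMOTL2, LATS2 and PTPN14 stand in both lists.

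Over the 12 libraries, CCN1 had the profile closest to each of the pair, and each was the second closest to the other. By the root mean square difference of centred log2 CPM profiles, among 11643 genes with a mean of at least 5 CPM, the genes most like YAP1 were CCN1 (0.102), WWTR1 (0.135), AMOTL2 (0.222), FOSL1 (0.263) and LY6K (0.294). For WWTR1 the genes were CCN1 (0.112), YAP1 (0.135), AMOTL2 (0.323), FOSL1 (0.357) and LY6K (0.359). FOSL1, an AP-1 subunit, fell by edgeR (log2 -2.18 and -2.30), and so did LY6K, a cell surface protein of the Ly6 family (log2 -2.48 and -2.22). The likeness is a description over 12 libraries that share the split into treated and siCo groups.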

How the data were processed

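RNA of 12 A549 libraries was sequenced after BGISeq-500 library preparation, per the labels' protocols. For each library the authors deposited estimated counts per gene, not scaled further, and TPM values per gene. Trim Galore 0.6.4, kallisto 0.4.6 and the build GRCh38.p13 are named in the submitters' processing notes without role or order, and the sources used here do not give how gene values were made from transcripts. Groups and replicate numbers came from sample titles. Of 60617 identifiers, 60357 matched a table of gene names and 58444 GENCODE v29, whose transcripts gave sequences and lengths and may not be the release the authors used.

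Estimated counts were rounded and tested with edgeR 4.0.16 (TMM, filterByExpr, group as the only term, quasi-likelihood test) in R 4.3.3. The SE given with an edgeR change was derived from that test, as the absolute log2 change divided by the square root of its F statistic. TPM was tested as log2(TPM + 1), and the log2 count to TPM ratio less each library's median, with limma 3.58.1 with trend. Adjusted p-values are Benjamini-Hochberg over all 21581 genes tested (21271 for the ratio, which needs values above 0), and calls are at 0.05. The comparisons with siCo share its 4 libraries. The single-value test was a two-sided exact permutation in SciPy 1.17.1. DESeq2 1.42.0 was an alternative, with other scalings, filters, pseudocounts, a replicate block and left-out libraries. The scripts were tested on simulated data. Chi-square per degree of freedom between replicates of a group was 3.63 to 72.7, so no pair within a group differed by sampling noise alone. The highest values were those of siYAP/TAZ#2 replicate 1 against replicates 2, 3 and 4 of its group (55.5, 46.4 and 72.7). Among siYAP/TAZ#2 replicates 2, 3 and 4 the values were 7.41 to 18.9. Libraries of different groups were not compared this way. Separate preparations of the same RNA cannot be told from biological replicates by this value.

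Named genes were the members, genes overlapping or named after them, 2 coding neighbours on each side, the TEAD genes with the 6 other Hippo and 6 target genes of lowest adjusted p, and the 5 genes most like each member. That adjusted p came from an edgeR test of the mean of both combinations against siCo, used only for this choice. Members and lists were chosen with earlier results of these data known.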

Additional observations from a re-analysis of the deposited data

Results flagged for a closer look

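A rule on the gap between an end value and its nearest neighbour, as a part of the range, flagged 0 of 21 groups of 4 values for the members. With 4 values such a rule flags only extreme cases. It did not flag replicate 4, although that was the highest treated library in TPM for both genes with both combinations. The edgeR difference between the combinations, siYAP/TAZ#1 against siYAP/TAZ#2, drew attention because it passed the test itself for 12 of the genes named around the pair, while neither YAP1 nor WWTR1 passed it. This comparison called 15.1% of all 21581 genes. Apart from TEAD2, the Hippo and target genes among the 12 had been named for their low adjusted p against siCo. The 12 calls therefore give no rate for the surroundings of the pair. The log2 difference was positive for TEAD2 (0.39), AMOTL2 (0.43), NF2 (0.40), WWC1 (0.48), BIRC3 (0.60) and BIRC2 (0.33). It was negative for FRMD6 (-0.39), PTPN14 (-0.25), TGFB2 (-0.77), CCN2 (-0.73), CEP126 (-0.41) and COMMD2 (-0.79). The BIRC2 call was lost without TMM factors (edgeR adjusted p = 0.12) and in a fit of the 2 treated groups alone (0.063). It was also lost without any 1 of siYAP/TAZ#1 replicates 1 to 4 or of siCo replicates 2 and 3 (edgeR adjusted p = 0.052 to 0.113), and without siYAP/TAZ#2 replicate 1 the BIRC2 difference was 0.21.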

How the results depend on the processing

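YAP1 and WWTR1 kept their direction and their calls against siCo in counts and in TPM under every alternative run. The share remaining depended on the unit. In TPM it was 23.1% and 21.1% for YAP1 and 27.6% and 22.9% for WWTR1 with siYAP/TAZ#1 and siYAP/TAZ#2, and in counts per library size 17.4% and 16.3% for YAP1 and 15.4% and 15.4% for WWTR1. For the sum of both it was 14.3% and 13.8% in TMM-scaled CPM and 16.1% and 15.7% in counts per library size. The log2 ratio of WWTR1 to YAP1 reversed in TMM-scaled CPM and in counts per library size. It was then -0.18 and -0.18 for siYAP/TAZ#1 against siCo, -0.091 and -0.091 for siYAP/TAZ#2 against siCo, and -0.085 and -0.085 between the combinations. Within a library, this ratio differs between counts and TPM by construction only through the effective lengths of the pair, apart from rounding. Why those lengths differed was not tested. With 1 library left out, the log2 ratio in TPM ran from -0.047 (without siYAP/TAZ#2 replicate 4) to 0.11 for siYAP/TAZ#2 against siCo.

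Between the combinations and with 1 library left out, WWTR1 in counts ran from -0.026 (without siYAP/TAZ#2 replicate 1) to 0.062 and YAP1 in TPM from -0.020 (without siYAP/TAZ#1 replicate 4) to 0.19, none called. WWTR1 in TPM was called between the combinations with TMM-type factors (0.36) and, an alternative added after seeing the data, with TPM rescaled without the 10 most abundant genes (0.36). The log2 count to TPM ratio of WWTR1 for siYAP/TAZ#1 against siCo was called among genes with a mean of at least 10 counts (-0.63) and ran from -0.67 to -0.57 with 1 library left out, with adjusted p-values (limma) of 0.021 to 0.158. Without both treated libraries numbered 4, also added after seeing the data, it was -0.67 (limma adjusted p = 0.165).

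Leaving out TMM factors shifted log2 changes by 0.18 with siYAP/TAZ#1 and 0.19 with siYAP/TAZ#2. It moved the genes called from 3999 lower and 3531 higher to 1905 and 5876 with siYAP/TAZ#1, and from 4144 and 4100 to 2037 and 6538 with siYAP/TAZ#2. WWTR1-AS1 then had log2 changes of 0.038 and 0.13. With 1 library left out, log2 changes that were not called changed sign for WWTR1-IT1 (-0.10 to 0.28) and ANKUB1 (-0.12 to 0.31) with siYAP/TAZ#1 against siCo, and for WWTR1-AS1 with siYAP/TAZ#2 against siCo (-0.14 to 0.013) and between the combinations (-0.15 to 0.0057). Over all alternatives, 116 counts of genes called, in all or in a list, moved by over 1.5 times, and the 9 calls lost among neighbouring genes were all of BIRC2. Genes called in TPM, 156 lower and 1736 higher with siYAP/TAZ#1 and 198 and 3519 with siYAP/TAZ#2, became 2895 and 3216 lower with TMM-type factors.

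Replicate numbers were not taken to pair the samples, since not every same-numbered pair had a correlation over 0.1: same-numbered libraries had correlations of 0.0043 to 0.193, -0.073 to 0.148 and -0.153 to 0.208 in the 3 comparisons, and 1, 1 and 2 of 4 correlated best with their own number. Number 4 was its own best match in all 3 comparisons (0.193, 0.148 and 0.208). Whether libraries of the same number shared a source was not tested beyond these correlations. With the replicate block, WWTR1 changed by -2.87 in counts with siYAP/TAZ#1 and its ratio by -0.63 (limma adjusted p = 0.159), no call of either gene changed, and TPM calls rose to 318 lower and 3799 higher with siYAP/TAZ#1 and 365 and 6362 with siYAP/TAZ#2. Values rest on 526 to 822 counts of YAP1 and 940 to 1339 of WWTR1 per treated library.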
